A study of Mus musculus with 4 samples.

Results

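The mitosis and spindle checkpoint genes are 42 named genes of chromosome segregation and cell division, listed by name, with no threshold on their values, although earlier results of these arrays were known when the list was made. A gene was measured when the array held a probe set annotated with that 1 symbol, and the probe set with the highest mean of the 4 arrays was taken. By this rule 41 of the 42 were measured, of 22180 genes in all, and *Ccnb1*, which encodes cyclin B1, was not. The genes were read in RNA of isolated glomeruli from control and *Gak*-KO mice. *Gak*-KO mice were made to lack cyclin G associated kinase in podocytes, the epithelial cells of the filtration barrier. Control mice were *Gak* fl/fl littermates, and *Gak*-KO mice were *Gak* fl/fl mice that also carried *Pod-Cre-Rosa-Dtr* fl. The podocin promoter drives Cre, so that the deletion is meant for podocytes alone while the arrays measured whole glomeruli. All mice were C57BL/6 and 3 weeks of age according to the labels, although a figure legend states another age. There were 2 arrays per group, each of the pooled glomeruli of 3 mice.

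In a dividing cell, cyclin-dependent kinase 1 with its cyclins drives entry into mitosis, kinetochores on the centromeres bind spindle microtubules, and the spindle assembly checkpoint holds back the anaphase-promoting complex until every kinetochore is attached. Once the checkpoint is satisfied, Cdc20 activates that ubiquitin ligase, cyclin B and securin are degraded, sister chromatids part, and a central spindle and an actomyosin ring divide the cell. Most of these genes are transcribed late in the cell cycle, so in tissue their RNA is low in resting cells and follows the share of cells in division. Mature podocytes are postmitotic, while mesangial, endothelial and parietal epithelial cells of the glomerulus can divide.

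The promoters of such genes are known for 2 short motifs, and these are shown because each was found in most of the promoters searched here. The first is the cell cycle genes homology region (CHR), searched here as TTTGAA with its reverse complement TTCAAA and as TTCGAA, which is its own reverse complement. The second is the CCAAT box, searched as CCAAT and ATTGG. RefSeq promoters of GRCm38.p6, which run from 250 bases before to 50 bases after the start site, were found for 34 of the 42 genes, and *Spc24*, *Ccna2*, *Cdc25c*, *Foxm1*, *Aurkb*, *Incenp*, *Tpx2* and *Kif20a* had no entry. CHR letters were in 25 of the 34 (73.5%), against 21.7% of the 27025 genes with a promoter of the same length and 19.2% of the 15379 of them that are protein coding and were measured. CCAAT letters were in 26 of the 34 (76.5%), against 41.1% and 42% of the same backgrounds. Both motifs were in 23 (67.6%), against 8.61% and 7.83%. The 6 genes *Mad2l1*, *Nuf2*, *Knstrn*, *Melk*, *Birc5* and *Nusap1* held neither. Within 50 bases of the start site, a distance chosen after the positions were seen, CHR letters were in 24 of the 34 (70.6%), against 6.12% and 5.02%. A match of letters is a description and not a bound site, and the motif was defined on genes of this kind.

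**Figure D1:**
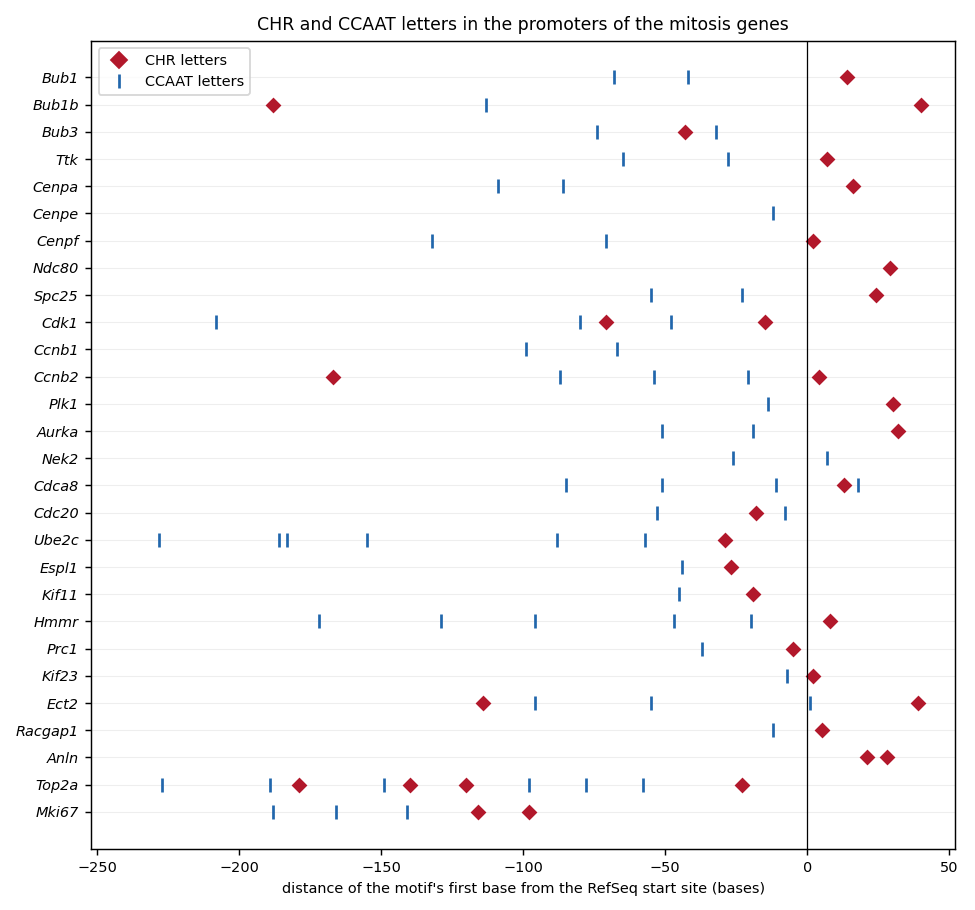
Positions of CHR letters (diamonds) and CCAAT letters (bars) in the first listed RefSeq promoter of the 28 genes of the list that hold either, 1 row per gene. The x axis is the distance in bases from the start site (vertical line). CHR letters lie near the start site in most rows, and CCAAT letters mostly lie upstream of it.

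Pieces of 8 promoters are printed 5′ to 3′ on the strand of the gene, with the CHR and CCAAT letters in capitals. Positions are counted from the first transcribed base, which is 1. They were taken from the genes called higher (*Bub1* and *Bub1b*), from genes with larger differences in pair 2 (*Hmmr*, *Kif23*), from the kinase gene *Cdk1* and the activator gene *Cdc20*, and from 2 genes that were lower in both pairs (*Spc25*, *Nek2*).
Bub1: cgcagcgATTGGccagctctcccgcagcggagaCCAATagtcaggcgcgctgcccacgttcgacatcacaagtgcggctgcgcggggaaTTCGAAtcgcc
Bub1b: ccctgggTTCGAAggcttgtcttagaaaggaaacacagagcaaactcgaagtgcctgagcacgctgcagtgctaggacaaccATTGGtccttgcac
Hmmr: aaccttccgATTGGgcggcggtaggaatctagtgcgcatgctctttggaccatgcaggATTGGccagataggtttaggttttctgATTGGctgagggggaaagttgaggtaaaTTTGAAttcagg
Kif23: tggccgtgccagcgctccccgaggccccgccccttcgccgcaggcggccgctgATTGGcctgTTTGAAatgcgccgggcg
Cdk1: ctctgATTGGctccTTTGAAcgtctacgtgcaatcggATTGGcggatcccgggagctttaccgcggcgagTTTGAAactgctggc
Cdc20: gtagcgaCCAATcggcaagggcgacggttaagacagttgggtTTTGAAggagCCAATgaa
Spc25: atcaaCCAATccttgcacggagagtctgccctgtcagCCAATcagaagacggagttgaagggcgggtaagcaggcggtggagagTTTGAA
Nek2: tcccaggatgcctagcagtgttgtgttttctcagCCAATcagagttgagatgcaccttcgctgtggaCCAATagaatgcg
The pieces lie at chr2:127831835-127831934 (minus strand), chr2:118598016-118598111 (plus strand), chr11:40733418-40733542 (minus strand) and chr9:61946780-61946859 (minus strand). The others lie at chr10:69352913-69352997 (minus strand), chr4:118437344-118437403 (minus strand), chr2:69206184-69206273 (minus strand) and chr1:191821413-191821492 (plus strand). *Bub1* holds TTCGAA at 15 after a pair of CCAAT boxes, and *Bub1b* holds TTCGAA at -188 and TTTGAA at 41, outside the piece shown. *Spc25*, which was lower in both pairs, holds TTTGAA at 25 and CCAAT at -55 and -23, so the letters were not limited to genes with higher values. *Nek2* holds CCAAT without CHR letters. The 25 measured genes with CHR letters had a median log2 difference of 0.13 in pair 1 and 0.39 in pair 2, and the 8 measured genes with a promoter entry and without them had 0.16 and 0.28.

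The values are log2 signals that the authors deposited, summarised by RMA, which corrects the background, normalizes the arrays and combines the probes of a probe set. The deposited array medians were 4.28 (control 1), 4.32 (*Gak*-KO 1), 4.13 (control 2) and 4.14 (*Gak*-KO 2). Arrays of the same number form pair 1 and pair 2, each with a control and a *Gak*-KO array, since *Z*-ratios were listed per batch in the study's supplement. In pair 1 the arrays shared exactly equal values at 1421 probe sets and in pair 2 at 3735, while arrays of different numbers shared 0. The *Z*-ratio is the difference of the *Z* scores of a gene within a pair, scaled by their SD across the genes measured, and a call needed a value past 1.96 of the same sign in each pair. It carries no p. Mean log2 differences (*Gak*-KO minus control) with their SE (standard error) come from a limma fit that blocks on the pair, with 2 arrays per group. Pair 1 is labelled male and pair 2 female. *Xist*, which the inactive X transcribes, went against this, with 9.69 (control) and 9.61 (*Gak*-KO) in pair 1 and 8.55 and 9.21 in pair 2. The Y-linked *Uty* had 4.65 and 5.59 in pair 1 and 6.00 and 5.57 in pair 2, so that its control arrays went against the labels and its *Gak*-KO arrays were nearly level. The pairs are therefore named by number. The targeted *Gak* had 8.25 and 8.64 in pair 1 and 8.35 and 8.39 in pair 2, and so was not lower in *Gak*-KO. In whole glomeruli this does not check the labels, as the other cells keep the gene. The podocyte genes *Nphs1* and *Podxl* were present on every array at log2 signals from 7.998 to 8.999 and from 9.99 to 11.13, and the tubular gene *Slc34a1* from 12.11 to 12.98, so the samples hold tubular RNA as well.

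In *Gak*-KO glomeruli, the checkpoint genes *Bub1* and *Bub1b* rose by 1.69-fold and 1.61-fold over control glomeruli, judged by the *Z*-ratio. Of the 41 measured genes 2 were called higher, where 0.509% of all genes were, 0 were called lower, where 0.234% of all genes were, and 39 did not pass. Without regard to a limit, 23 of the 41 (56.1%) were higher in both pairs, against 22.3% of all genes, and 3 were lower in both, against 24.3%. Exactly equal values in a pair count as neither, which lowers the shares of all genes. Of all 22180 genes, 4956 were higher in both pairs, 5389 lower in both and 8809 opposite, and the rest held a tie in at least 1 pair. Among the 41 genes, ties were at 0 in pair 1 and at 1 in pair 2. The median log2 difference of the 41 genes was 0.14 in pair 1 and 0.39 in pair 2, where the median of all genes was 0.00 in both. The shares of all genes given here also stand beside the counts of each group and list below. In bulk RNA, fewer or more cells in division cannot be told apart from less or more RNA per dividing cell. Both called genes also stand on the gene list that the authors drew from these arrays, so the calls are not independent of that list.

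More of the genes were higher in pair 2 than in pair 1, and their median difference was larger there. In pair 1, 27 of the 41 (65.9%) were higher, against 46.6% of all genes, and 4 were past the limit, where 2.88% of all genes were. In pair 2, 34 of the 41 (82.9%) were higher, against 44% of all genes, and 14 were past the limit, where 3.01% of all genes were. Those 4 in pair 1 were *Bub1*, *Bub1b*, *Aurkb* and *Racgap1*. The 14 in pair 2 were *Bub1*, *Bub1b*, *Ttk*, *Nuf2*, *Ccna2*, *Ccnb2*, *Plk1*, *Foxm1*, *Tpx2*, *Hmmr*, *Nusap1*, *Kif20a*, *Kif23* and *Mki67*. None of the 41 was past the limit downwards in either pair. Of all 22180 genes, 530 were in pair 1 and 656 in pair 2. Whether the pairs differ could not be tested, since each holds 1 array per group. Across the 41 genes the differences of the pairs correlated at a Pearson *r* of 0.0633, and across all genes at 0.130, where the genes of a pair share the same arrays.

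With limma, 0 genes passed an adjusted p of 0.05 over all genes (smallest adjusted p = 0.833, Benjamini-Hochberg), also among the 41. At an unadjusted limma p under 0.05, 11 of the 41 were higher and 0 lower, where 2.89% of all genes were higher. Of all 22180 genes, 563 were lower at that threshold. *Bub1b* and *Bub1* had the smallest unadjusted p among the 41 in this limma fit. An exact two-sided permutation test of a single gene has 0.333 as its smallest possible p when the 4 arrays are not paired. Both *Gak*-KO arrays were above both control arrays for 14 of the 41, where 8.8% of all genes were. They were below both for 0 of the 41, and for 1823 of all 22180 genes.

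**Figure D2:**
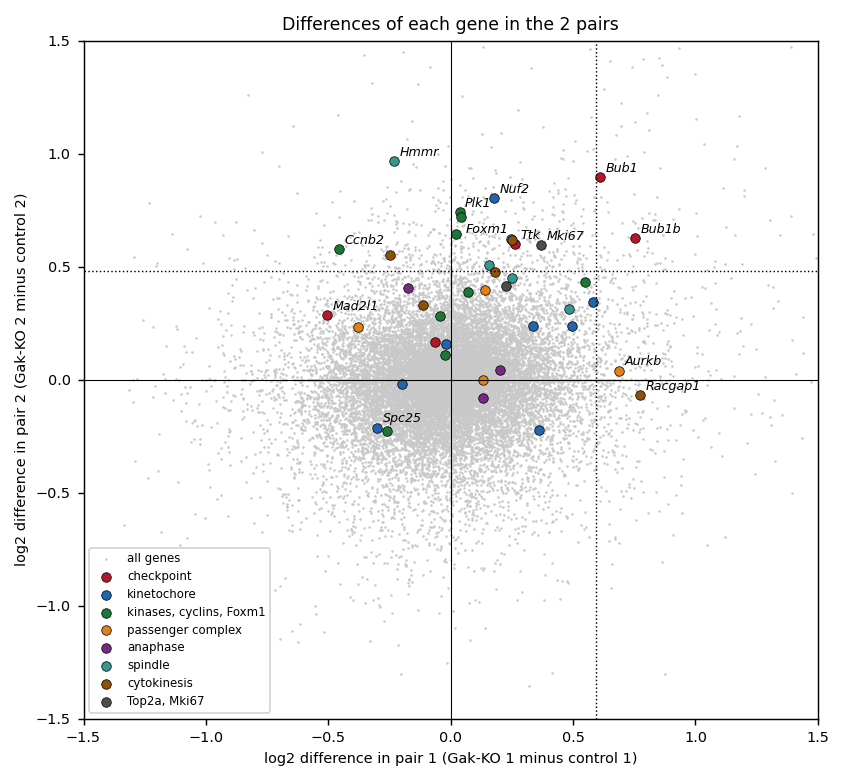
Log2 difference of each gene in pair 1 (x axis) and in pair 2 (y axis), *Gak*-KO minus control. Grey points are all 22180 genes (55 beyond 1.5 on either axis are not shown), coloured points the 41 mitosis genes by role, and dotted lines lie at 1.96 SDs of the differences of all genes. *Bub1* and *Bub1b* lie beyond both lines, and most of the coloured points lie above the horizontal zero line.

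The spindle assembly checkpoint is built by the kinases Bub1 and Ttk, the kinase-like BubR1, encoded by *Bub1b*, the adaptor Bub3 and the Cdc20 inhibitor Mad2, encoded by *Mad2l1*. *Bub1* had log2 signals of 3.74 (control) and 4.35 (*Gak*-KO) in pair 1 and of 3.30 and 4.20 in pair 2. Its log2 difference was 0.61 in pair 1 and 0.90 in pair 2, with *Z*-ratios of 2.08 and 3.71 and a mean of 0.75 (SE 0.12). *Bub1b* was at 4.22 and 4.97 in pair 1 and at 4.66 and 5.29 in pair 2, control first here and in all values that follow. For both genes the 2 *Gak*-KO arrays were above the 2 control arrays. The log2 difference of *Bub1b* was 0.75 and 0.63 in pairs 1 and 2, with *Z*-ratios of 2.53 and 2.58 and a mean of 0.69 (SE 0.10). The call of *Bub1* in pair 1 is close to the limit, and it was lost (*Z*-ratio 1.83 in pair 1) once the genes of low signal were dropped. With every probe set in the *Z* scores, both calls were lost, with *Z*-ratios of 1.48 and 2.58 for *Bub1* and 1.81 and 1.79 for *Bub1b*.

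*Ttk*, whose kinase starts checkpoint signaling at unattached kinetochores, was at 3.92 and 4.18 in pair 1 and at 4.66 and 5.26 in pair 2. It was higher in both pairs and past the limit in pair 2 alone, with a mean log2 difference of 0.43 (SE 0.13). *Mad2l1* was at 6.59 and 6.08 in pair 1 and at 5.72 and 6.00 in pair 2. The *Gak*-KO value of *Mad2l1* was therefore the lower one in pair 1 and the higher one in pair 2. *Bub3*, which also has roles outside mitosis, had log2 differences of -0.07 and 0.17. The checkpoint group thus had 2 of 5 genes called, where 0.509% of all genes were called higher. Its 5 genes were all higher in pair 2, where 44% of all genes were, and so were the 5 genes of spindle assembly.

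**Figure D3:**
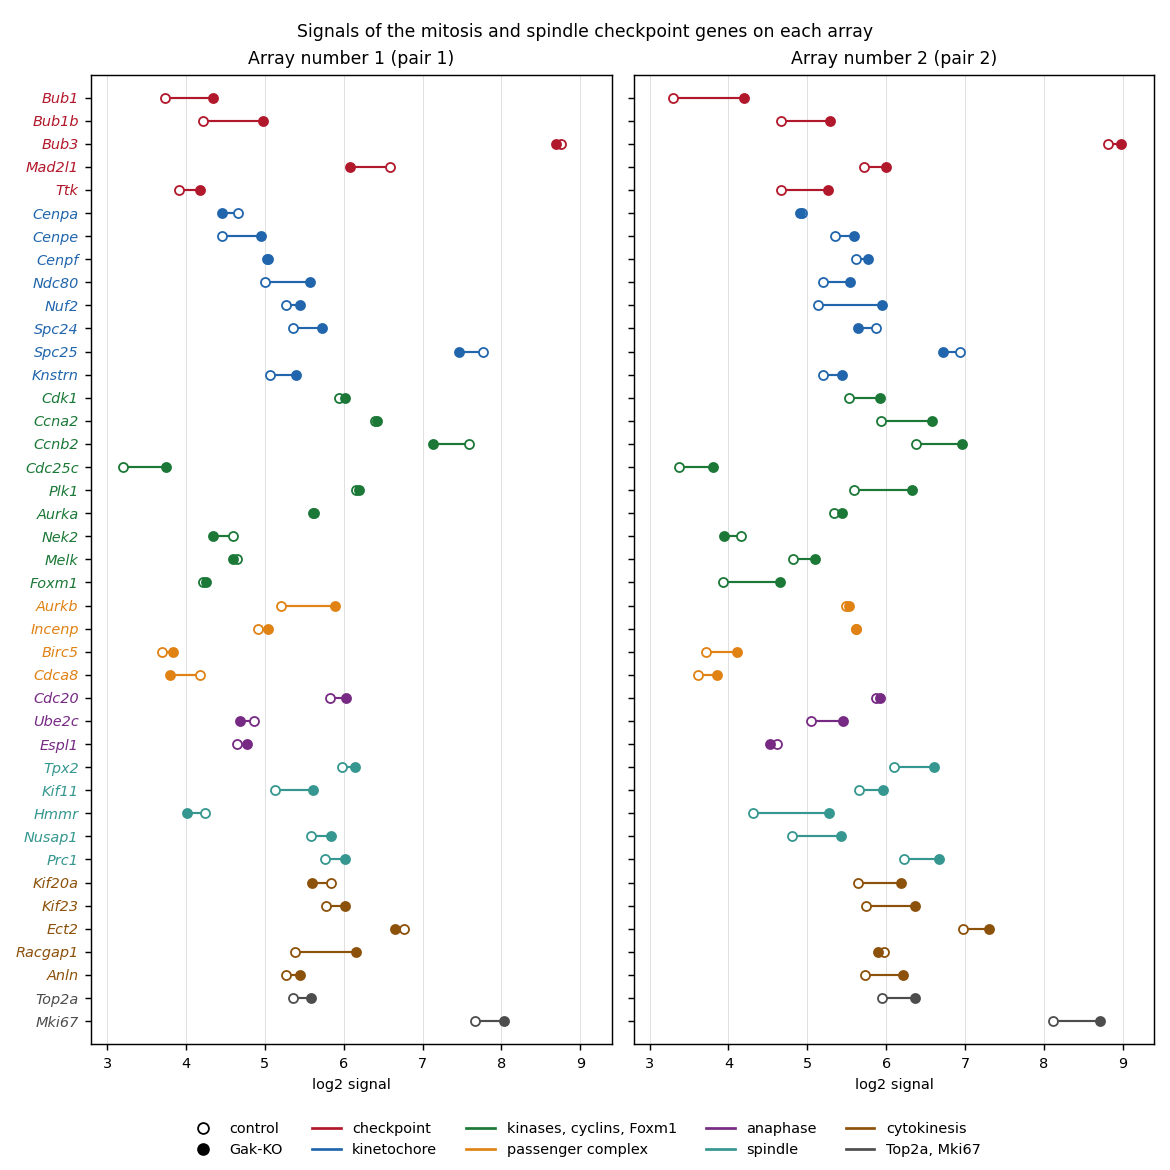
Log2 signal (x axis) of the 41 measured genes on each array, a row per gene, with control arrays as open and *Gak*-KO arrays as filled circles, array number 1 on the left and number 2 on the right. Filled circles lie to the right of open ones for 27 genes in pair 1 and for 34 in pair 2.

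At the kinetochore, the Ndc80 complex of Ndc80, Nuf2, Spc24 and Spc25 makes the attachment to microtubules. *Nuf2* was at 5.26 and 5.44 in pair 1 and at 5.14 and 5.94 in pair 2, a mean log2 difference of 0.49 (SE 0.20). *Ndc80* was at 4.997 and 5.58 in pair 1 and at 5.20 and 5.55 in pair 2, a mean of 0.46 (SE 0.12). For both genes the *Gak*-KO arrays were above the control arrays, yet *Nuf2* was past the limit in pair 2 alone, and *Ndc80*, with a *Z*-ratio of 1.94 in pair 1, in neither. The partners in the same complex went otherwise. *Spc25* was at 7.76 and 7.46 in pair 1 and at 6.94 and 6.73 in pair 2, a mean of -0.26 (SE 0.10), so it was the lower one in *Gak*-KO in both pairs. *Spc24* had log2 differences of 0.36 in pair 1 and -0.22 in pair 2. The 4 genes of 1 complex thus held means from -0.26 to 0.49.

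Of the other kinetochore genes, *Cenpe*, which encodes a kinesin that moves chromosomes to the spindle equator, was at 4.46 and 4.96 in pair 1 and at 5.36 and 5.59 in pair 2. *Knstrn*, which encodes the kinastrin (small kinetochore-associated) protein, was at 5.06 and 5.40 in pair 1 and at 5.20 and 5.43 in pair 2. Both were higher in *Gak*-KO in each pair, with means of 0.37 (SE 0.12) and 0.29 (SE 0.10), and neither passed the limit in a pair. A second probe set of *Knstrn*, with lower signal, had differences of -0.26 and -0.14, in the other direction. *Cenpa*, the histone H3 variant that marks centromeres, had differences of -0.20 and -0.02, and *Cenpf* of -0.02 and 0.16. Of the 8 kinetochore genes 0 were called, 4 were higher in both pairs and 2 were lower in both.

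Entry into mitosis is set by Cdk1 with cyclins A and B, by the phosphatase Cdc25C that activates Cdk1, and by Plk1 and the aurora A kinase, while FoxM1 is a transcription factor of late cell cycle genes. *Plk1* was at 6.16 and 6.20 in pair 1 and at 5.59 and 6.33 in pair 2. *Foxm1* was at 4.21 and 4.25 in pair 1 and at 3.93 and 4.65 in pair 2. *Ccna2*, which encodes cyclin A2, was at 6.40 and 6.43 in pair 1 and at 5.94 and 6.58 in pair 2. These 3 genes shared a pattern, with differences of at most 0.04 in pair 1 and from 0.64 to 0.74 in pair 2. On all 3 the control 2 array had the lowest of the 4 values, and both *Gak*-KO arrays were above both controls.

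*Cdc25c* differed evenly in the pairs, with 3.20 and 3.75 in pair 1 and 3.38 and 3.81 in pair 2, a mean log2 difference of 0.49 (SE 0.10). Its *Z*-ratios of 1.89 and 1.82 lay just inside the limit, and it was called on a robust scale, at 2.28 and 2.60. It was the only one of the 41 in the lowest 30% of genes by mean signal. *Cdk1*, the kinase at the centre of the group, was at 5.95 and 6.02 in pair 1 and at 5.53 and 5.92 in pair 2, a mean of 0.23 (SE 0.13). *Ccnb2*, which encodes cyclin B2, was at 7.59 and 7.14 in pair 1 and at 6.38 and 6.96 in pair 2. The pairs of *Ccnb2* therefore pointed in opposite directions, at -0.46 and 0.58, and its 2 control arrays lay further apart than its control and *Gak*-KO arrays within either pair.

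*Aurka* had differences of -0.02 and 0.11 and *Melk*, a kinase gene of proliferating cells, of -0.04 and 0.28. *Nek2*, whose kinase parts the centrosomes, was at 4.60 and 4.34 in pair 1 and at 4.16 and 3.94 in pair 2, lower in *Gak*-KO in both, with a mean of -0.24 (SE 0.10). Of the 9 measured genes of kinases, cyclins and *Foxm1* 0 were called, 5 were higher in both pairs and 1 was lower in both.

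The chromosomal passenger complex joins the aurora B kinase to Incenp, survivin, encoded by *Birc5*, and borealin, encoded by *Cdca8*, and corrects wrong attachments. *Aurkb* was at 5.21 and 5.89 in pair 1 and at 5.48 and 5.52 in pair 2. It was past the limit in pair 1 alone, the reverse of *Plk1* and *Foxm1*, with a mean log2 difference of 0.36 (SE 0.20). *Birc5* was at 3.70 and 3.84 in pair 1 and at 3.71 and 4.11 in pair 2. *Incenp* had a difference of 0.13 in pair 1, and in pair 2 both arrays held exactly the same value of 5.61, the only such tie among the 41. *Cdca8* had differences of -0.38 and 0.23. Among the 4 genes 0 were called and 2 were higher in both pairs.

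For the step into anaphase, Cdc20 activates the anaphase-promoting complex, Ube2c is its ubiquitin-conjugating enzyme, and separase, encoded by *Espl1*, cuts cohesin. *Cdc20* was at 5.83 and 6.03 in pair 1 and at 5.87 and 5.92 in pair 2. *Ube2c* had differences of -0.17 and 0.41 and *Espl1* of 0.13 and -0.08. The means of the 3 genes lay from 0.02 to 0.12, with SEs from 0.10 to 0.19, and this group held no gene past the limit in either pair.

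Of the 5 genes of spindle assembly 4 were higher in both pairs and the other one in pair 2 only. *Tpx2*, whose product nucleates microtubules and activates aurora A, was at 5.98 and 6.14 in pair 1 and at 6.10 and 6.61 in pair 2. *Kif11*, which encodes the bipolar spindle motor Eg5, was at 5.12 and 5.61 in pair 1 and at 5.65 and 5.97 in pair 2. *Nusap1*, a microtubule-bundling protein gene, was at 5.59 and 5.84 in pair 1 and at 4.81 and 5.43 in pair 2. These genes and *Prc1*, which encodes the bundler of the central spindle, at differences of 0.25 and 0.45, were higher in *Gak*-KO in both pairs, with means from 0.33 to 0.43. *Hmmr*, which encodes a hyaluronan receptor that also binds the spindle, was at 4.25 and 4.01 in pair 1 and at 4.31 and 5.27 in pair 2. Its difference of 0.97 in pair 2, or 1.96-fold, was the largest of the 41 in either pair, while in pair 1 the *Gak*-KO array was the lower one. None of the 5 was called.

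In cytokinesis, Kif23 and Racgap1 form centralspindlin, Ect2 activates RhoA at the equator, anillin (*Anln*) scaffolds the ring and Kif20a carries Plk1 to the midzone. *Kif23* was at 5.77 and 6.02 in pair 1 and at 5.74 and 6.36 in pair 2, and its 2 *Gak*-KO arrays were above its controls, with a mean of 0.44 (SE 0.14). *Racgap1* was at 5.38 and 6.15 in pair 1 and at 5.97 and 5.90 in pair 2. The partners in centralspindlin thus had their larger differences in opposite pairs, 0.62 in pair 2 for *Kif23* and 0.77 in pair 1 for *Racgap1*. *Anln* had differences of 0.18 and 0.48, with a *Z*-ratio of 1.94 in pair 2, *Ect2* of -0.11 and 0.33 and *Kif20a* of -0.25 and 0.55. Of the 5 genes 0 were called and 2 were higher in both pairs.

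*Mki67* and *Top2a* are the usual markers of proliferating cells, the first encoding the Ki-67 protein of mitotic chromosomes and the second topoisomerase II alpha. *Mki67* was at 7.67 and 8.04 in pair 1 and at 8.11 and 8.71 in pair 2, a mean log2 difference of 0.48 (SE 0.11). *Top2a* was at 5.35 and 5.58 in pair 1 and at 5.95 and 6.37 in pair 2, a mean of 0.32 (SE 0.11). Both were higher in *Gak*-KO in each pair, *Mki67* was past the limit in pair 2 alone, and for both the control 2 array was above the *Gak*-KO 1 array, so that the groups overlap.

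Other genes of mitosis, in 5 lists of 107 measured genes, gave 1 call upwards and 0 downwards, where 0.509% and 0.234% of all genes were called. Of the 107, 46 (43%) were higher in both pairs, against 22.3% of all genes. Their median difference was 0.04 in pair 1 and 0.16 in pair 2. The 1 call was *Mybl1*, which encodes a Myb transcription factor, at 3.60 and 4.32 in pair 1 and 3.89 and 4.45 in pair 2, and it too stands on the authors' gene list. Of 24 other spindle and cytokinesis genes 15 were higher in both pairs (medians of 0.10 and 0.36). The ends of that list were the minus-end motor gene *Kifc1*, at 4.35 and 4.27 in pair 1 and 3.00 and 4.39 in pair 2, and *Sapcd2*, with a mean of -0.24 (SE 0.14) from differences of -0.43 and -0.039. The mean of *Kifc1* rests on pair 2 and its low control 2 value.

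Of 31 other kinetochore genes 12 were higher in both pairs (medians of 0.03 and 0.18), between the shugoshin gene *Sgo2a* at a mean of 0.58 (SE 0.13) and *Ska2*, of a microtubule-binding complex, at -0.34 (SE 0.10). The pairs of *Sgo2a* had 0.42 and 0.73 and those of *Ska2* -0.40 and -0.28. Of 18 condensin and cohesin genes 8 were higher in both pairs (medians of 0.01 and 0.17), between the condensin II gene *Ncapg2* at 0.48 (SE 0.11) and the cohesin acetyltransferase gene *Esco2* at -0.30 (SE 0.11). The pairs of *Ncapg2* had 0.40 and 0.57 and those of *Esco2* -0.41 and -0.19. Of 17 genes of the anaphase-promoting complex and its regulators 1 was higher and 8 were lower in both pairs (medians of -0.10 and -0.01), between *Ube2d1* at 0.12 (SE 0.12) and *Ube2s* at -0.27 (SE 0.11). *Ube2d1* had 0.24 in pair 1 and equal values in pair 2, and *Ube2s* had -0.18 and -0.36. The 8 lower genes held subunits of that complex and also regulators, among them *Fbxo5* (-0.43 and -0.01), *Pttg1* (-0.14 and -0.03) and *Ube2s*. Of 17 other regulators of the G2 to M transition 10 were higher in both pairs (medians of 0.13 and 0.15), between *Mybl1* at 0.64 (SE 0.11) and *Cks2*, which encodes a Cdk1 subunit, at -0.36 (SE 0.29). The pairs of *Cks2* pointed in opposite directions, at -0.86 in pair 1, past the limit (*Z*-ratio -2.90), and 0.14 in pair 2.

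Earlier phases of the cycle are given for comparison, with no test of a difference between lists. Of 25 genes of DNA replication 0 were called and 11 were higher in both pairs (medians of 0.23 in pair 1 and 0.09 in pair 2), between the helicase gene *Mcm3* at 0.45 (SE 0.10) and *Gins1* at -0.18 (SE 0.14). *Mcm3* had 0.51 and 0.39 in the pairs, whereas *Gins1* had equal values in pair 1 and -0.36 in pair 2. There the larger median was that of pair 1, whereas the mitosis genes had theirs in pair 2. Of 18 genes of G1 and of inhibitors of cyclin-dependent kinases 1 was called higher, *Cdkn1a*, which encodes the inhibitor p21, at 8.14 and 8.97 in pair 1 and at 7.77 and 8.48 in pair 2. Both of its *Gak*-KO values were above its control values, with a mean log2 difference of 0.77 (SE 0.10), and the lowest of the list was *Ccne1* at -0.24 (SE 0.10), from -0.20 and -0.27. The checkpoint genes *Bub1* and *Bub1b* and the inhibitor gene *Cdkn1a* were thus called in the same direction on the same arrays. Unlike *Bub1* and *Bub1b*, *Cdkn1a* does not stand on the authors' gene list.

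**Figure D4:**
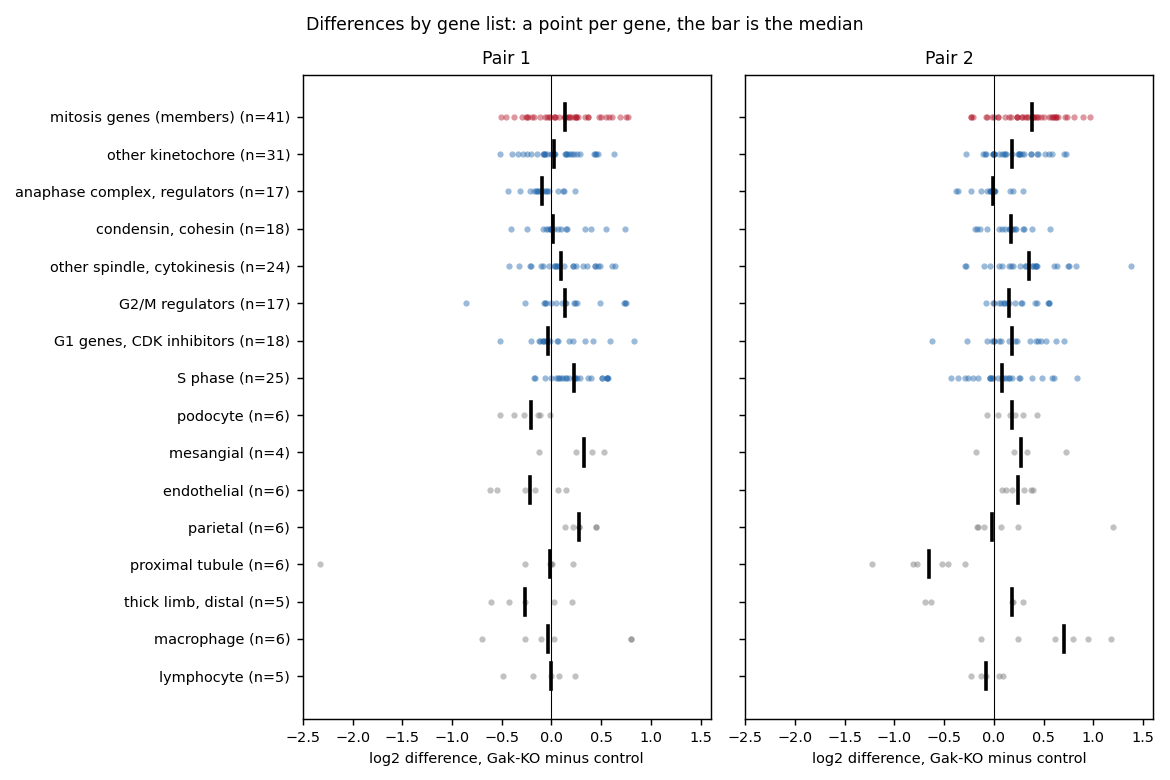
Log2 difference (x axis, *Gak*-KO minus control) of each gene by list, pair 1 on the left and pair 2 on the right, with a black bar at the median of a list. Mitosis genes are red, other cell cycle lists blue and cell type markers grey. In pair 2 the medians of the mitosis genes (0.39) and of the macrophage markers (0.71) lie above 0, and that of the proximal tubule markers (-0.65) below, while in pair 1 they were 0.14, -0.04 and -0.01.

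Markers of the cell types that a glomerular preparation can hold also differed on these arrays. The 6 macrophage markers had a mean log2 signal of 4.62 and 4.71 in pair 1 and of 4.83 and 5.44 in pair 2, and 2 of 6, *Cd68* and *Mpeg1*, were called higher. The list did not move as one, with a median difference of -0.04 in pair 1 and 0.71 in pair 2. *Lyz2* (-0.70 and 0.95) and *Csf1r* (-0.26 and 0.80) were lower in pair 1 and higher in pair 2, *Adgre1* (-0.10 and -0.13) was lower in both, and *Itgam* had 0.024 and 0.25. The 6 proximal tubule markers had 11.37 and 10.98 in pair 1 and 10.48 and 9.80 in pair 2, and 1 of 6, *Kap*, was called lower. In pair 1 the lower mean rests on *Kap* (-2.32), as the other 5 lay between -0.26 and 0.22 and the median of the list was -0.01. In pair 2 all 6 were lower, from -1.23 to -0.29, with a median of -0.65. The medians of both lists, like that of the mitosis genes, were further from 0 in pair 2. In pairs 1 and 2 the medians were -0.22 and 0.24 for endothelial, -0.21 and 0.19 for podocyte and 0.33 and 0.27 for mesangial markers. They were 0.28 and -0.01 for parietal, -0.27 and 0.18 for thick limb and distal and 0 and -0.08 for lymphocyte markers. The 4 measured mesangial markers had 7.19 and 7.45 in pair 1 and 6.99 and 7.26 in pair 2, and the 6 endothelial markers 9.92 and 9.69 in pair 1 and 10.13 and 10.37 in pair 2, with 0 called in either list. Of the 6 measured podocyte markers 0 were called, with 7.89 and 7.65 in pair 1 and 8.79 and 8.97 in pair 2. The 6 parietal markers had 8.57 and 8.87 in pair 1 and 8.39 and 8.57 in pair 2, with 0 called. The 5 thick limb and distal markers had 11.42 and 11.20 in pair 1 and 11.63 and 11.50 in pair 2, and 1, *Slc12a1*, was called lower. Of 5 measured lymphocyte markers, with list means from 3.39 to 3.64, 0 were called. The part of these cell types in the values of the mitosis genes was not tested.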

How the data were processed

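RNA of isolated glomeruli was hybridised to 4 arrays, with 3 mice pooled for each array. The authors deposited log2 signals made with RMA, and limma is also named in the submitters' processing notes, without versions. The methods name another array type than that of the probe set identifiers, which belong to a whole-transcript mouse array. Of 41345 probe sets, 23521 had 1 gene symbol, 1820 several and 16004 none in the platform annotation. Probe sets with 1 symbol were used, 1 per gene. The scanner files were not analysed here.

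Same-numbered arrays were paired, as the study lists a *Z*-ratio for each of its batches. Deviations from the group mean correlated across genes at 0.694 within a number. Nothing says that the pools of a number share a litter. With the pair as a block, p values and SEs measure how far the 2 within-pair differences of a gene disagree. limma 3.58.1 in R 4.3.3 was fitted over all 22180 genes with the pair as a block, which leaves 1 residual degree of freedom with 2.24 added by the moderation, and p values were Benjamini-Hochberg adjusted. After the moderation, a gene with no disagreement between its pairs still had an SE of 0.096, so SEs near 0.10 hold little measured spread. The fit and the *Z*-ratio were tested on simulated data. Motifs were searched with Python 3.11.15 and figures drawn with matplotlib 3.10.9.

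The members and lists were chosen with earlier results of these data known, and some list genes are in the study's own table of called genes. The rule for named genes took all members, the called genes and both ends of each cell cycle list by mean difference. It also took *Gak* and the markers, of which most are given as lists. *Bora* and *Arhgap11a* lie outside that rule and are named for their place on the authors' gene list. *Fbxo5* and *Pttg1* also lie outside it and are named as regulators that were lower in both pairs. Alternatives were no block, quantile normalization, median centring, mean of a gene's probe sets, *Z* scores over all probe sets and genes of low signal left out. Others were an intensity trend, a robust scale, a limit of 2.58, an unpaired t-test, and leaving out each pair or array. The number of arrays limits the precision.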

Additional observations from a re-analysis of the deposited data

Results flagged for a closer look

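For 14 of the 41 genes the difference between *Gak*-KO and control pointed in opposite directions in the pairs, as it did for 8809 of all 22180 genes. Pair 1 is labelled male and pair 2 female. This difference between the pairs was not tested, since each pair holds 1 array per group, and the sex labels go against *Xist* as given above. With log2 differences in pairs 1 and 2, 11 of them were lower in pair 1 and higher in pair 2. Among these, the kinases and regulators were *Bub3* (-0.065 and 0.17), *Mad2l1* (-0.51 and 0.29), *Ccnb2* (-0.46 and 0.58), *Aurka* (-0.023 and 0.11), *Melk* (-0.042 and 0.28) and *Ube2c* (-0.17 and 0.41). The structural and motor genes were *Cenpf* (-0.019 and 0.16), *Cdca8* (-0.38 and 0.23), *Hmmr* (-0.23 and 0.97), *Kif20a* (-0.25 and 0.55) and *Ect2* (-0.11 and 0.33). The reverse held for *Spc24* (0.36 and -0.22), *Espl1* (0.13 and -0.083) and *Racgap1* (0.77 and -0.069). The widest gap between the pairs was that of *Hmmr*. A call needs the same sign in each pair, so none of the 14 could be called.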

How the results depend on the processing

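The count of called members stayed at 2 under quantile normalization, median centring and averaging of each gene's probe sets. It was 3 on a robust scale, with *Cdc25c* added, 1 without low-signal genes (*Bub1* lost), and 0 with every probe set in the *Z* scores or at the limit of 2.58. With 1 pair left out, from 4 (pair 1 alone) to 14 (pair 2 alone) members were past the limit. Members called lower were 0 under every one of these settings. Over all genes, 32 higher and 9 lower genes were called with every probe set in the *Z* scores, 195 and 213 on a robust scale, 48 and 11 at the limit of 2.58, and from 639 to 667 and from 530 to 656 by 1 pair alone.

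Without the replicate block, limma called 0 genes after adjustment, 176 at an unadjusted p under 0.05 in place of 1204, and 3 members in place of 11. With an intensity trend it was 6 members. An unpaired t-test of equal variance gave 444 genes and 2 members at that threshold, and 1 gene after adjustment. The paper names a t-test for comparisons of 2 groups, but called its array genes by *Z*-ratio. With 1 array left out, in a fit without the pairing, the adjusted count ranged from 0 to 1 (without *Gak*-KO 2), the unadjusted one from 111 to 532, and that of members from 1 to 5. Such fits mix in whatever sets arrays 1 apart from arrays 2.

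The median of the members' mean differences, 0.32, ranged from 0.12 (without *Gak*-KO 2) to 0.43 (without *Gak*-KO 1) with 1 array or pair left out, and it was 0.21 without control 1 and 0.14 without pair 2. Of 41 members, 2 changed sign under quantile normalization (*Aurka*, *Espl1*), 1 under median centring (*Espl1*) and from 3 to 12 with 1 array left out. Members higher in both pairs numbered from 20 to 23 under the other scalings and filters. Under median centring the median difference of the 41 members was 0.09 in pair 1 and 0.38 in pair 2.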

Other observations

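Probe sets that carry the symbol of a member together with another symbol were not used above. A pair of probe sets annotated with *Top2a* and *Taf1d* had log2 differences of -0.53 in pair 1 for both and of 0.39 and 0.31 in pair 2, where the probe set of *Top2a* alone had 0.23 and 0.41. A probe set of *Oip5* and *Nusap1* had 0.12 and -0.33, where that of *Nusap1* alone had 0.25 and 0.62.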
